A study of Mus musculus with 4 samples.

Results

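The 35 genes described here are the core machinery of macroautophagy, listed by symbol and matched on the gene name field of the transcript identifiers; all 35 were found among the 55536 genes of the gene tables. They fall into 7 roles: 5 genes of the ULK kinase complex, 6 of the class III phosphatidylinositol 3-kinase complexes, 5 of lipid supply and phosphatidylinositol 3-phosphate (PI3P) binding, 7 of ubiquitin-like conjugation, 4 Atg4 proteases, 5 Atg8 family genes and 3 cargo receptors. The rule names genes by function and uses no measured value.

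The cells were bone-marrow-derived macrophages of the mouse strain C57BL/6J, with no altered allele named. Every library came from cells held for 60 min with 100 ng/mL of a stimulus, which some labels name lipoprotein A and another names Lipid A. There were 4 libraries of polyadenylated RNA, numbered as biological replicates 1 to 4 with a single technical replicate each. Unstimulated cells are not analysed here, so nothing below measures a response. The 4 share 1 donor identifier, sex and age are not given, and no label says whether the cells came from separate mice or dishes. The p-values therefore describe spread among these libraries, which may be technical.

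Macroautophagy wraps cytoplasm, damaged organelles or invading bacteria in a double membrane, the autophagosome, which then fuses with lysosomes. The ULK kinase complex starts the process, a lipid kinase complex marks the membrane with PI3P, and lipid carriers feed the growing membrane. A pair of ubiquitin-like conjugation reactions then attaches Atg8 family proteins to phosphatidylethanolamine, where cargo receptors dock. In macrophages the pathway is known for the capture of intracellular bacteria, and some of the same conjugation proteins act on phagosomes.

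Total counts assigned to genes ran from 26917324 in replicate 1 to 39438414 in replicate 4, and ribosomal RNA took 12.4% of them in replicate 1 against 3.43% to 7.28% elsewhere. Replicates 1 and 2 were each built from 6 read files and replicates 3 and 4 from 4 read files each. All 8 macrophage markers were at or above 1 TPM (transcript level corrected for length and library total) in every library, with summed levels of 19637, 35202, 20390 and 28238 TPM. Neutrophil markers (4 of 8 at or above 1 TPM in every library) summed to 69.0 TPM at the lowest, in replicate 4, and to 728 TPM at the highest, in replicate 3. None of the 4 B cell, 5 T and NK cell or 5 stromal and endothelial markers reached 1 TPM in every library, and 1 of 5 dendritic cell markers did. In such bulk samples fewer cells of a type and less RNA per cell cannot be told apart.

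Each of the 35 genes was at or above 1 TPM in every library, as were 43.7% of the 22015 nuclear protein-coding genes. Their mean levels ran from 4.21 TPM for Atg14 to 806 TPM for Gabarap, and 27 of the 35 averaged at least 10 TPM. The median gene of the 35 averaged 17.1 TPM, beside 17.8 TPM for the 9629 protein-coding genes at or above 1 TPM in every library. The typical member thus lay near the middle of the expressed genes, and 3 genes, all of the Atg8 family, averaged above 100 TPM.

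**Figure D1:**
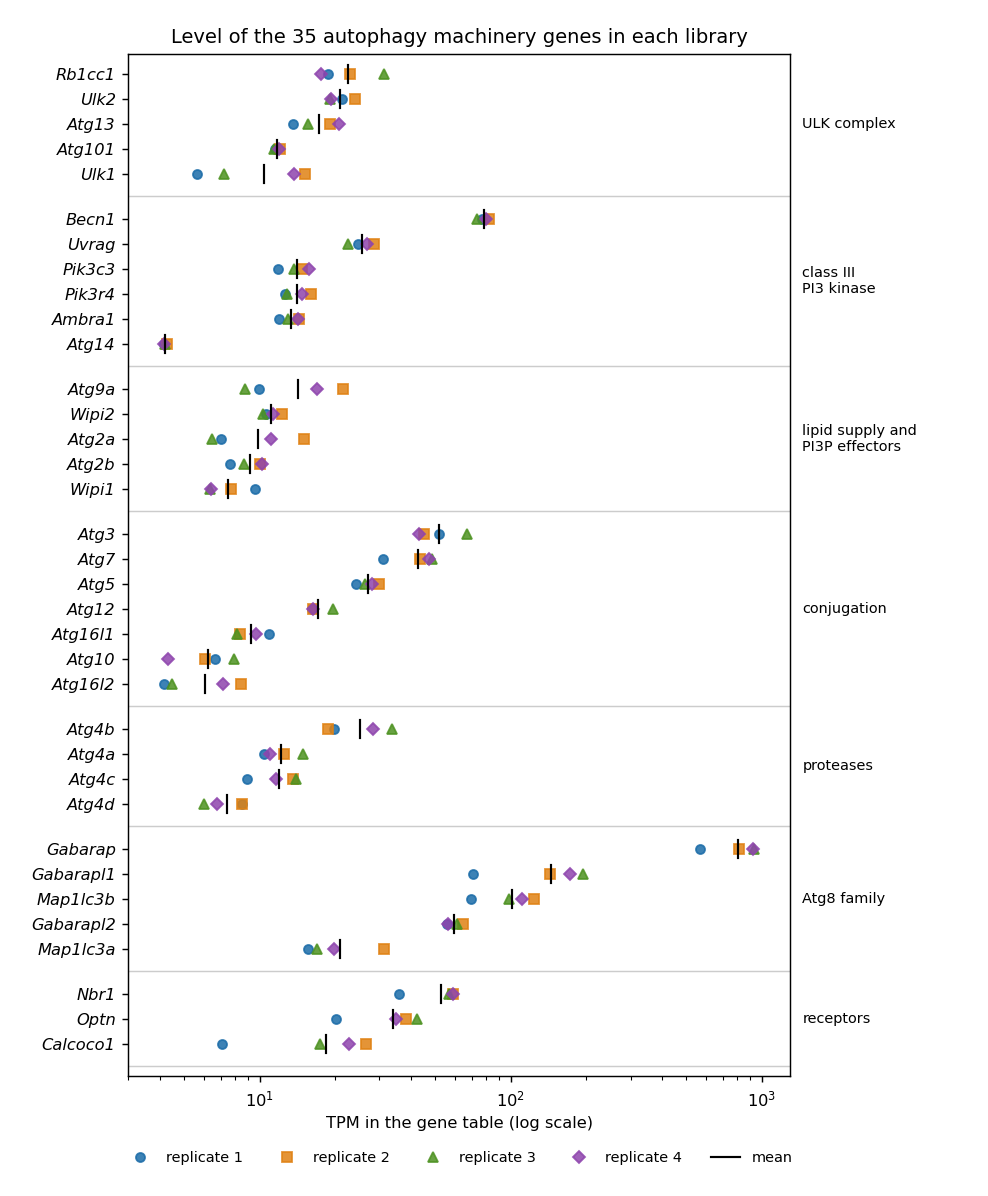
TPM of each of the 35 genes (log axis) in the 4 libraries (coloured symbols) with the mean as a black bar, grouped by role. Gabarap, at 569 to 928 TPM, lies above all others, and most genes lie between 5 and 60 TPM.

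The Atg8 family held the highest level of all roles. Gabarap, one of the ubiquitin-like proteins that become joined to membrane lipid, measured 569, 808, 928 and 918 TPM in replicates 1 to 4. Gabarapl1, its closest relative, measured 70.6, 143, 194 and 172 TPM. Map1lc3b, which encodes the LC3B protein widely used as an autophagosome marker, measured 69.5, 124, 98.7 and 111 TPM. All of them were lowest in replicate 1. Gabarapl2, known as GATE-16, measured 56.0, 64.8, 60.8 and 56.2 TPM and stayed within 1.07-fold on scaled counts. Map1lc3a, the gene of LC3A, measured 15.6, 31.2, 16.9 and 19.7 TPM and was highest in replicate 2. The descending order Gabarap, Gabarapl1, Map1lc3b, Gabarapl2, Map1lc3a was the same in all 4 libraries, but the ranges of Gabarapl1 and Map1lc3b over the libraries overlapped, and in replicate 1 the pair was almost level.

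Gabarap alone made up 71.3% ± 1.65 (SD, n = 4) of the summed TPM of the family. The 3 genes of the GABARAP subfamily together made up 89.2% ± 1.81 (SD, n = 4), with 89.1%, 86.8%, 91.1% and 89.7% in the 4 libraries. Gabarap exceeded Gabarapl1 by 2.55 ± 0.33 (SD, n = 4) on the log2 TPM scale and Gabarapl2 by 3.74 ± 0.31, and it was higher in 4 of 4 libraries in both comparisons. Map1lc3b exceeded Map1lc3a by 2.30 ± 0.27 on the same scale. Each of these gaps was larger than the spread between libraries; no test was made of them. By the second quantification, made straight from the reads, Gabarap held 65.8% ± 1.84 (SD, n = 4).

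**Figure D2:**
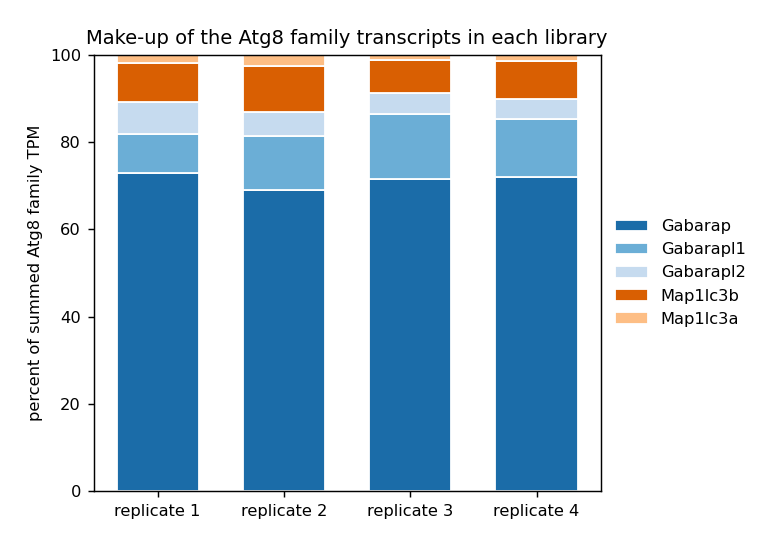
Share of each Atg8 family gene in the summed TPM of the family (percent, stacked bars) in the 4 libraries. Gabarap held 69.0% to 72.9%, and Map1lc3a held the smallest share in every bar, 1.301% to 2.66%.

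Proteins of this family are cut by Atg4 proteases so that a glycine becomes their last residue, the one joined to lipid. The final 60 coding bases of each gene, stop codon included, are shown because they carry that glycine and show how the genes differ behind it. Capitals mark the last glycine codon of the reading frame (GENCODE M21 transcripts, build mm10, plus strand in all 5).
Gabarap, chr11:69994465-69994524: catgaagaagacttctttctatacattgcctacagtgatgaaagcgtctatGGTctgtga
Gabarapl1, chr6:129541108-129541167: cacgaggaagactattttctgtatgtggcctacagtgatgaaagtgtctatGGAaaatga
Gabarapl2, chr8:111952346-111952405: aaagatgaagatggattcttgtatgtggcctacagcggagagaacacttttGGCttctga
Map1lc3b, chr8:121596711-121596770: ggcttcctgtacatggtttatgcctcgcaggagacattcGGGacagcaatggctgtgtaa
Map1lc3a, chr2:155277578-155277637: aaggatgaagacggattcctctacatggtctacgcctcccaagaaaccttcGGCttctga
All 5 stretches lie in single exons. The glycine codon is number 116 of 117 in Gabarap, Gabarapl1 and Gabarapl2, and number 120 in both LC3 genes, so 1 codon follows it in every gene except Map1lc3b, where 5 follow. Over the whole coding sequence, Gabarap and Gabarapl1 were 74.9% identical and Map1lc3a and Map1lc3b 74.7%, while identities between the subfamilies ran from 50.6% to 55.2%.

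Near-identical copies bear on these genes. A search of the coding sequences (at least 90% identity over at least 200 bases) found 5 processed pseudogenes of Map1lc3b and 6 of Gabarapl2. The Map1lc3b copy Gm6055, 99.7% identical over 378 bases, was given 5.29, 12.4, 2.31 and 2.12 TPM, a mean equal to 5.48% of the level of Map1lc3b, and the other 4 copies were listed at 0. The Gabarapl2 copy Gm3724 averaged 1.92 TPM, 3.23% of Gabarapl2. How fragments were split between gene and copy was not tested.

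In the ULK complex, which phosphorylates the first autophagy factors, the kinase gene Ulk1 (chr5:110784488-110810097) measured 5.63, 15.2, 7.20 and 13.7 TPM in replicates 1 to 4. The related kinase gene Ulk2 measured 21.2, 23.9, 19.1 and 19.2 TPM. Ulk2 was the higher of the pair in 4 of 4 libraries, with a log2 ratio of Ulk1 to Ulk2 of -1.12 ± 0.67 (SD, n = 4), and the gap was widest in replicate 1. Ulk1 was high in replicates 2 and 4 and low in 1 and 3, while Ulk2 spanned 1.165-fold on scaled counts. The scaffold gene Rb1cc1, which encodes FIP200, measured 18.7, 22.8, 31.1 and 17.6 TPM. Atg13, the adaptor of the kinase, measured 13.6, 19.1, 15.6 and 20.7 TPM, and Atg101, which stabilises Atg13, measured 11.5, 12.0, 11.4 and 12.0 TPM, nearly the same in each library.

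Rb1cc1 showed how TPM and counts can part. Its TPM was highest in replicate 3, yet its scaled CPM (counts relative to the scaled library size) were 50.2, 62.0, 55.3 and 54.2, with replicate 2 highest. In replicate 3 the full-length transcript Rb1cc1-201 (7607 bases) was given 9.9% of the gene's TPM, against 31.0% to 37.7% in the other libraries, and the shorter Rb1cc1-205 (1599 bases) 15.4%. The second quantification gave Rb1cc1-201 5.2% to 8.7% in the 4 libraries. Atg4b showed the same: 33.8 TPM in replicate 3 against 18.7 in replicate 2, but 30.1 and 29.5 scaled CPM. For both genes, calls between libraries below rest on counts.

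The class III PI3 kinase complexes make PI3P at the forming membrane. Summed over all transcripts, Becn1, the gene of the Beclin 1 scaffold, was their highest gene with 77.0, 81.8, 73.4 and 79.8 TPM. This rank did not hold on coding transcripts alone, where Becn1 averaged 11.3 TPM. Uvrag averaged 23.0, Pik3c3 14.0, Ambra1 13.4, Pik3r4 8.625 and Atg14 4.205 TPM on theirs. The catalytic subunit gene Pik3c3 measured 11.8, 14.8, 13.7 and 15.8 TPM, and Pik3r4, for the VPS15 regulatory subunit, measured 12.6, 15.9, 12.8 and 14.7 TPM. None of Becn1, Pik3c3 and Pik3r4 spanned more than 1.5-fold on scaled counts. Atg14 directs the complex to autophagosome formation, and Uvrag belongs to the alternative complex of the endosome. Atg14 measured 4.16, 4.29, 4.21 and 4.16 TPM, the lowest mean of all 35, and Uvrag measured 24.7, 28.6, 22.4 and 26.8 TPM. Uvrag exceeded Atg14 by 6.06-fold on average (5.32-fold to 6.66-fold over the libraries), and by 9.19-fold by the second quantification. Both ratios are of all transcripts summed. The second quantification placed 32.0% of the TPM of Uvrag and 99.1% of that of Atg14 on coding transcripts. By the first these shares were 90.2% and 100%. The pair was chosen after the values were seen. The regulator gene Ambra1 measured 11.9, 14.4, 13.0 and 14.2 TPM and was lowest in replicate 1.

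Among the genes of lipid supply, Atg9a (chr1:75180860-75192196), the membrane-embedded lipid scramblase of Atg9 vesicles, measured 9.90, 21.4, 8.74 and 16.9 TPM. Atg2a (chr19:6241668-6262335), a lipid transfer protein that bridges to the growing membrane, measured 7.04, 14.9, 6.44 and 11.1 TPM. Both were high in replicates 2 and 4 and low in 1 and 3. Atg2b, the paralog of Atg2a, measured 7.61, 10, 8.69 and 10.2 TPM. Which of the pair was higher changed with the library: Atg2a in 2 of 4, with a mean log2 ratio of 0.04. This ratio became -0.14 without replicate 2 and 0.31 by the second quantification, where Atg2a was higher in 3 of 4. On coding transcripts alone Atg2a had 5.53, 13.8, 6.11 and 11.1 TPM and Atg2b 6.34, 7.69, 6.02 and 7.82 TPM. The PI3P binding protein genes Wipi1 and Wipi2 measured 9.61, 7.67, 6.33 and 6.40 TPM and 10.6, 12.3, 10.3 and 11.3 TPM. Wipi2, which recruits Atg16l1, was the higher in 4 of 4 libraries, by 0.59 ± 0.30 (SD, n = 4) on the log2 scale, but by 0.30 and in 3 of 4 libraries on the deposited posterior mean TPM. Wipi1 went the other way from most members, with its highest value in replicate 1.

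The conjugation genes build the Atg12-Atg5-Atg16l1 ligase and charge Atg8 proteins. Atg3, the E2-like enzyme for Atg8 proteins, measured 51.7, 45.2, 67.2 and 43.3 TPM and was highest in replicate 3. Atg7, the E1-like enzyme that serves both reactions, measured 31.1, 43.6, 48.4 and 47.0 TPM and was lowest in replicate 1. Atg5, the protein to which Atg12 is joined, measured 24.1, 29.8, 26.2 and 28.1 TPM. Atg12 itself measured 16.1, 16.3, 19.6 and 16.3 TPM, with replicate 3 set apart from the others. These genes did not share a highest library. Atg10, the E2-like enzyme for Atg12, had only 6.64, 6.06, 7.92 and 4.31 TPM. Atg16l1, which positions the ligase on the membrane, measured 10.9, 8.33, 8.09 and 9.67 TPM, and its paralog Atg16l2 4.14, 8.44, 4.49 and 7.14 TPM. Summed over all transcripts, Atg16l1 was the higher in 3 of 4 libraries, and in replicate 2 the pair was level, with a log2 ratio of -0.02. The mean log2 ratio of 0.67 ± 0.60 (SD, n = 4) became 0.13 by the second quantification. The pair was not level on coding transcripts alone. There Atg16l1 had 10.6, 8.12, 7.54 and 9.49 TPM, above Atg16l2 with 3.33, 3.28, 2.43 and 3.41 TPM in every library. With all transcripts summed, levels within this group spanned from 6.05 TPM for Atg16l2 to 51.8 TPM for Atg3.

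The Atg4 proteases prime Atg8 proteins and also free them from lipid. Atg4b, the main enzyme for LC3 in mammalian cells, measured 19.7, 18.7, 33.8 and 28.3 TPM. Atg4a, which prefers GABARAP proteins, measured 10.4, 12.5, 14.9 and 11.0 TPM. Atg4c measured 8.94, 13.5, 13.9 and 11.6 TPM and Atg4d 8.50, 8.47, 5.98 and 6.73 TPM. Summed over all transcripts, Atg4b was the highest of the 4 in every library, by a log2 TPM difference of 1.01 ± 0.34 (SD, n = 4) over Atg4a, 1.04 ± 0.39 over Atg4c and 1.73 ± 0.66 over Atg4d. This order did not hold for single forms: on coding transcripts alone Atg4b had 11.9 TPM in replicate 2, below Atg4c at 13.5 TPM. The principal transcript Atg4b-201, at 8.97, 10.3, 9.13 and 10.2 TPM, lay below Atg4a-201, at 10.2, 11.4, 14.7 and 10.9 TPM, in every library. A copy of Atg4a, Atg4a-ps, is 99.4% identical over 1191 coding bases but averaged only 0.11 TPM.

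The cargo receptors link ubiquitin-tagged or other cargo to Atg8 proteins. Optn, the gene of optineurin, a receptor for ubiquitin-coated bacteria and mitochondria, measured 20.1, 38.2, 42.3 and 35.02 TPM. Nbr1, a receptor for protein aggregates and peroxisomes, measured 35.9, 58.9, 56.6 and 59.0 TPM. Calcoco1 (chr15:102706777-102722178), which is known as a receptor for the endoplasmic reticulum and Golgi, measured 7.05, 26.5, 17.3 and 22.7 TPM. All 3 were lowest in replicate 1.

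Whether the libraries differed more than counting allows was tested with a chi-square test (3 degrees of freedom) of each gene's rounded counts against library sizes scaled by the trimmed mean of M-values (TMM), with Benjamini-Hochberg adjustment over the 12626 genes whose counts averaged 10 or more. By this test 32 of the 35 genes varied beyond counting noise at an adjusted p under 0.05, against 88.6% of all genes tested, so the count is close to the background. The test covers counting error only and treats fragments as independent molecules. The 3 genes that did not pass were Gabarapl2 (adjusted p = 0.365), Atg101 (adjusted p = 0.764) and Atg14 (adjusted p = 0.675). Their scaled counts differed by 1.07-fold, 1.10-fold and 1.10-fold between the highest and the lowest library.

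A gene was called variable where it also spanned at least 2-fold between its highest and lowest scaled count. This held for 7 of the 35 (20%), against 33.0% of all genes tested. The 7 were Calcoco1 at 3.82-fold, Ulk1 at 2.82-fold, Gabarapl1 at 2.70-fold, Atg2a at 2.53-fold, Atg9a at 2.33-fold, Optn at 2.31-fold and Map1lc3a at 2.14-fold. Map1lc3b, at 1.999-fold, lay just outside, and Atg10 followed at 1.86-fold. By role, 2 of 3 receptors, 2 of 5 Atg8 genes, 2 of 5 lipid supply genes and 1 of 5 ULK complex genes were called, and none of the 6 PI3 kinase, 7 conjugation or 4 protease genes. The median fold range of the 35 was 1.45, beside 1.68 over all genes tested. The deposited credibility intervals of the TPM were apart in at least 1 pair of libraries for 25 of the 35 genes, against 77.5% of genes at or above 1 TPM. Without replicate 1, only Atg2a and Atg9a remained called, against 16.1% of all genes. Atg9a and Map1lc3a were not called without replicate 2, Optn without replicate 3, Gabarapl1 and Optn with the libraries of 6 read files alone, and Map1lc3a by the second quantification or with scaling by total counts.

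**Figure D3:**
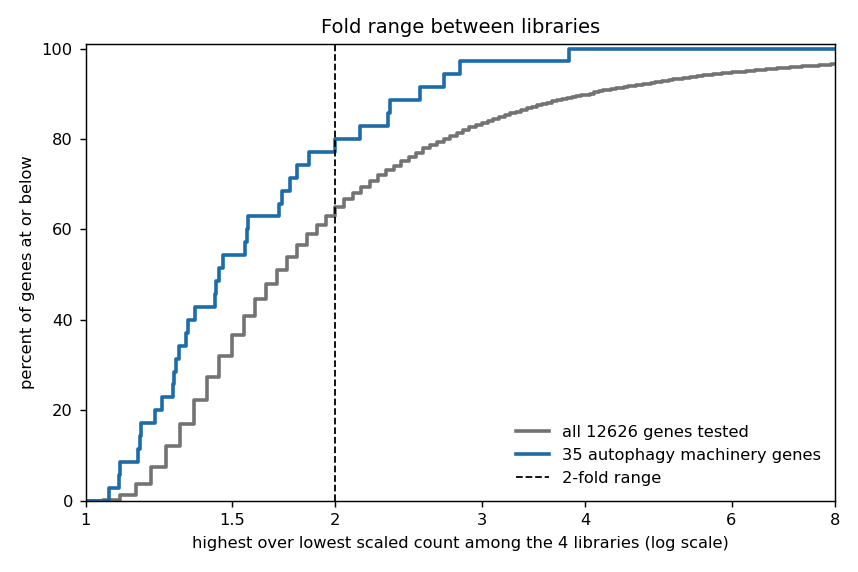
Cumulative percent of genes (vertical axis) against the ratio of the highest to the lowest scaled count among the 4 libraries (log axis), for the 35 genes and for all 12626 genes tested. At the dashed 2-fold line, 28 of the 35 genes lie to the left.

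Of the 7, all but Atg9a were lowest in replicate 1. On scaled CPM, Calcoco1 measured 11.5, 44.1, 30.1 and 40.0, Gabarapl1 66.5, 130.3, 179.6 and 172 and Optn 29.4, 55.9, 68.0 and 55.7. Ulk1 measured 17.2, 48.6, 24.4 and 44.3, Atg2a 21.04, 53.2, 25.1 and 45.9 and Atg9a 21.7, 49.0, 21.1 and 41.4. These 3, like Calcoco1, were highest in replicates 2 and 4. The summed macrophage markers were also highest there and the neutrophil markers lowest (197.9, 108, 728 and 69.0 TPM in replicates 1 to 4); their part in this was not tested. Map1lc3a, at 7.51, 16.1, 8.36 and 10.02, was highest in replicate 2.

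In a count added after the data were seen, 27 of the 35 genes (77.1%) had their lowest scaled count in replicate 1, whereas 32.6% of all genes tested did. The exceptions were Atg2b, Atg9a, Uvrag, Wipi1 and Atg4d, lowest in replicate 3, Atg3 and Atg16l1, lowest in replicate 2, and Atg10, lowest in replicate 4. On the log2 scale (1 added to the CPM) the median of the 35 lay -0.22 from each gene's mean in replicate 1 and 0.10, 0.00 and 0.12 in the others, while the median of all genes lay within 0.02 of 0. By role the deviation in replicate 1 ran from -0.13 for conjugation to -0.54 for the Atg8 family and -0.75 for the receptors. Replicate 1 also had the fewest counts and the largest ribosomal RNA share, given above, as well as the lowest summed macrophage markers; their part in this was not tested. With libraries scaled by total counts without ribosomal RNA and mitochondrially encoded genes, which moves all genes of replicate 1 by 0.10 on the log2 scale, 19 of the 35 were lowest there, against 25.3% of all genes.

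**Figure D4:**
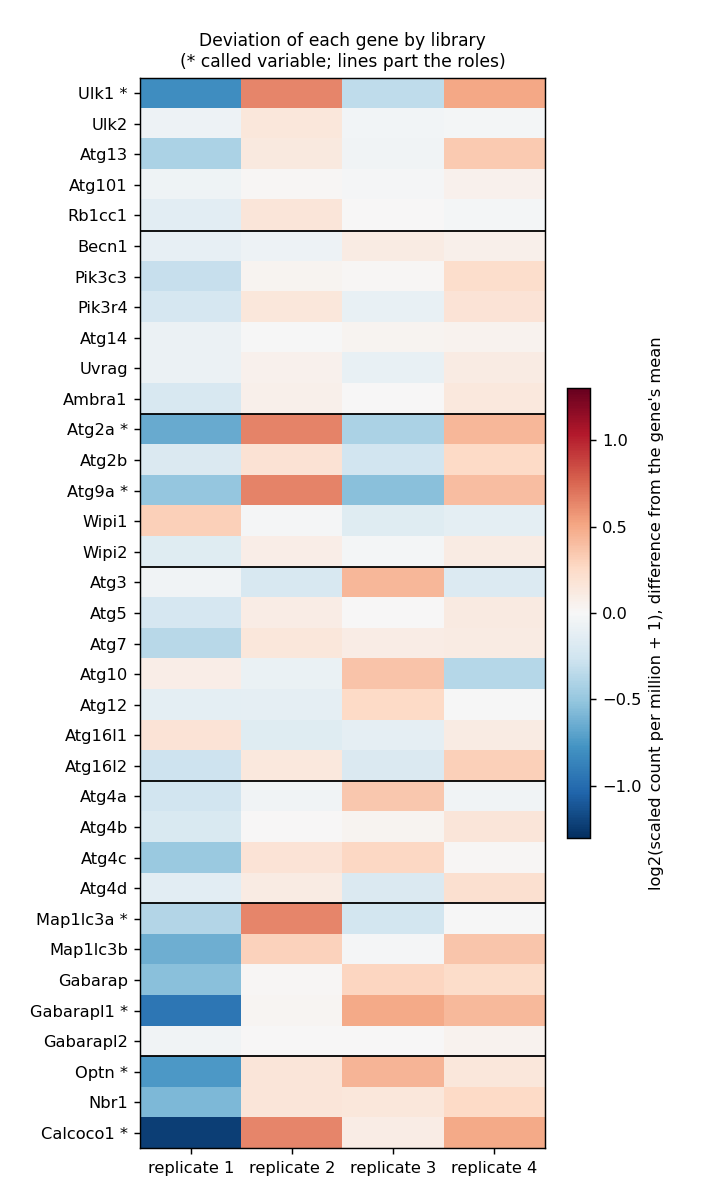
Difference of log2(scaled CPM + 1) from each gene's mean, in colour, for the 35 genes (rows, by role) and 4 libraries (columns); blue is below the mean. Replicate 1 is blue for most rows, down to -1.22 for Calcoco1, and Wipi1, Atg16l1 and Atg10 are above their means there.

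The number of read files per library is a technical difference given in the deposited text lists. Its relation to gene counts was tested with edgeR's quasi-likelihood test between the libraries with 6 and with 4 read files. No gene of 12701 passed an adjusted p of 0.05 (0.00%), and none of the 35 did. With so few libraries in each group the test can miss real differences, so nothing is concluded from the lack of calls. At an unadjusted p under 0.05 there were 290 genes and none of the 35; the smallest p among them was 0.0663, for Gabarapl1. The Wald test of DESeq2 passed 38 genes after adjustment and none of the 35, of which Gabarapl1 alone had an unadjusted p under 0.05 (0.0495).

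Transcript tables were used to ask which form of each gene the counts were given to. The 35 genes have 252 annotated transcripts, of which 110 are protein coding. The leading transcript, the one with the largest mean share of the gene's TPM, was protein coding for 33 of the 35, and transcripts annotated as protein coding held a median of 95.8% of a gene's TPM, beside 97.6% over the 9629 expressed protein-coding genes. The 2 exceptions were Becn1 and Atg4d, and only these had under 50% of their TPM on coding transcripts in the first transcript table, as did 4.86% of expressed protein-coding genes. In the second table Uvrag (32.0%), Atg16l2 (41.1%) and Rb1cc1 (42.7%) were under 50% as well; in the first, Atg16l2 had 55.3% ± 17.9 and Rb1cc1 56.1% ± 13.1 (SD, n = 4).

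For Becn1 (chr11:101285952-101302286, minus strand), coding transcripts held 14.3% ± 3.83 (SD, n = 4) of the TPM. The leading transcript was Becn1-201, annotated for nonsense-mediated decay, the pathway that removes messages with an early stop codon, with 34.4%, 32.7%, 42.5% and 31.4% in the 4 libraries. The principal coding transcript, Becn1-205, held 9.3%, 7.5%, 7.7% and 10.2%. The second quantification gave 33.7% ± 4.65 and 4.08% ± 1.80 (SD, n = 4). Becn1-201 differs in exon 4 of 12, which runs 64 bases further than in Becn1-205, and holds 4 more bases in exon 7. The 64 bases are shown because they end the reading frame; capitals mark the stop codon.
Becn1-201, end of exon 4, chr11:101296194-101296257, minus strand: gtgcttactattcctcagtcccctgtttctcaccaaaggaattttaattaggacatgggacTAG
The stop comes after 105 codons, where Becn1-205 has 448. The 4 transcripts that hold the 64 bases took 42.8% ± 7.78 of the TPM, and all 11 that span the site took 72.5% ± 5.22 (SD, n = 4). The last exon of Becn1-201 is annotated 2310 bases shorter than that of Becn1-205; the part of this difference in the split was not tested. The levels of Becn1 given above for each library are thus levels of all its transcripts, and those of its coding transcripts averaged 11.3 TPM.

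For Atg4d (chr9:21265293-21277772), coding transcripts held 16.5% ± 7.33 (SD, n = 4). Its leading transcript Atg4d-203, annotated as a retained intron, held 56.9%, 68.7%, 65.9% and 56.8% in the 4 libraries, and it includes intron 4 of the 9 introns of the coding transcript Atg4d-201. A further retained intron transcript, Atg4d-205, held 18.7% ± 10.2. The second quantification named the same leading transcript, at 61.2% ± 6.64. Exons of Kri1, a gene on the other strand with a mean of 20.6 TPM, overlap Atg4d-203 by 289 bases and Atg4d-201 by 1405. As the strand setting is not given, fragments of Kri1 and Atg4d cannot be told apart in that overlap. Atg4d-201 is annotated with 5951 bases and Atg4d-203 with 2123, and the part of this difference in the split was not tested. Coding transcripts of Atg4d averaged 1.18 TPM.

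The remaining genes split into clear and unclear cases. Atg5, Atg3, Pik3c3, Atg14, Atg101, Calcoco1, Atg4a and Atg12 had over 95% of their TPM on a single coding transcript by both quantifications. The leading transcript was the same by both for 31 of the 35, near the 91.7% of expressed protein-coding genes, and the 4 others were Rb1cc1, Uvrag, Atg2b and Atg4c. For Uvrag, the coding Uvrag-201 held 90.2% ± 3.73 of the TPM in the first transcript table and 32.0% ± 8.44 (SD, n = 4) in the second, which gave 36.7% to Uvrag-208, annotated for nonsense-mediated decay. Atg9a-205 led over Atg9a-201 in replicates 1, 2 and 4 and followed it in replicate 3, with 36.4% against 55.9%; both have the same coding length of 2517 bases. Of Map1lc3a, 35% ± 8.90 (SD, n = 4) was on the non-coding Map1lc3a-203. Retained intron transcripts held 38.5% ± 4.71 of the TPM of Pik3r4 in the first transcript table and 8.88% ± 3.46 in the second. For Gabarapl2 these shares were 24.5% ± 8.89 and 39% ± 8.67 (SD, n = 4).

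**Figure D5:**
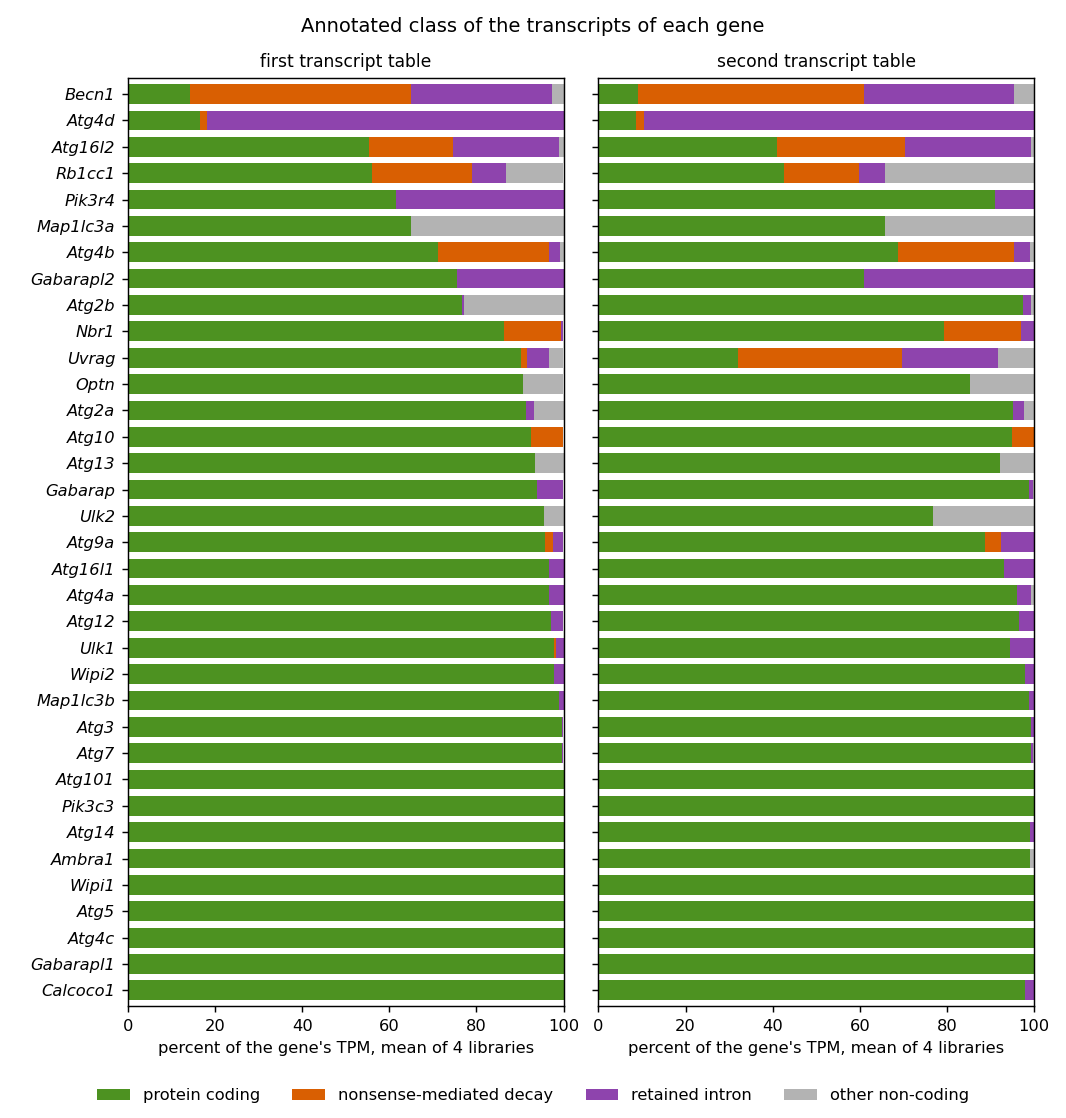
Mean share of each gene's TPM (percent, 4 libraries) on transcripts of each annotated class, in the first (left) and second (right) transcript table, genes ordered by coding share. Becn1 and Atg4d stand at the top with 14.3% and 16.5% coding, and Uvrag is the gene whose coding share differs most between the tables.

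Exons of 11 of the 35 genes overlap another gene. Beside Kri1, the partners with a mean level of at least 1 TPM were Gskip (383 bases of Atg2b), Zcchc14 (58 bases of Map1lc3b), Ankzf1 (46 bases of Atg9a) and Fchsd2 (25 bases of Atg16l2), all on the opposite strand.

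Promoters were searched for motifs of factors known to act on autophagy genes: CACGTG, the E-box core bound by TFEB and related factors, its extended form TCACGTGA, and TGTTTAC, the FOXO site. RefSeq promoter windows (GRCm38.p6, from 250 bases before to 50 bases after a start site) matched 29 of the 35 genes with 32 windows; Map1lc3a, Rb1cc1, Atg16l1, Pik3c3, Atg12 and Becn1 were not matched. On either strand, CACGTG occurred in 4 of the 32 windows (12.5%), beside 7.15% of all 32851 windows, and each TCACGTGA also counts as a CACGTG. TCACGTGA occurred in 1 window, beside 0.974% of all, and TGTTTAC in none, beside 3.65%. The 4 windows belong to Atg3, Atg5, Atg7 and Atg14. The window of Atg7 lies inside the gene: its start site is 27999 bases past that of the leading transcript Atg7-201, and no GENCODE M21 transcript of Atg7 starts within the window. The windows of the other 3 start at most 44 bases from the start of the leading transcript, and the stretches around their matches are shown with the motif in capitals.
Atg3, chr16:45158705-45158793, plus strand: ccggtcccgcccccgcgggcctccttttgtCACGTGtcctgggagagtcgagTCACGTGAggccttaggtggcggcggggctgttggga
Atg5, chr10:44268295-44268348, plus strand: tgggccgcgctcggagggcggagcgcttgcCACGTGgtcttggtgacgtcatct
Atg14, chr14:47568425-47568465, minus strand: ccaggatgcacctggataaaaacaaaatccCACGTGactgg
Atg3 holds 2 matches, at 94 and 71 bases before the start site, the second within TCACGTGA. A match is a stretch of letters, not a bound site. None of the 4 genes was called variable, where 20% of the 35 and 33.0% of all genes tested were. Their fold ranges were 1.57 for Atg3, 1.27 for Atg5, 1.43 for Atg7 and 1.10 for Atg14. Scaled counts were highest in replicate 3 for Atg3, in replicate 2 for Atg7 and in replicate 4 for Atg5 and Atg14. Of these, Atg14 did not vary beyond counting noise. Whether the motif bears on these values was not tested.

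Genes that work beside the machinery were read from 4 lists. Of 20 other autophagosome formation genes, all at or above 1 TPM, 5 were called variable (25%, against 33.0% of all genes): Tecpr1, Trp53inp1, Wdr45, Trp53inp2 and Rubcnl, each lowest in replicate 1. Tecpr1, a tether that acts in late steps, measured 31.2, 156, 91.9 and 128 TPM, a 5.10-fold range on scaled counts. Trp53inp1, a p53 target that binds Atg8 proteins, measured 6.14, 29.3, 13.0 and 19.3 TPM. The highest of the list were Sh3glb1, a partner of Beclin 1, at 233 ± 62.1 TPM (SD, n = 4) and Vmp1, an endoplasmic reticulum scramblase, at 145 ± 54.1 TPM, and neither reached a 2-fold range.

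Of 14 tested among 15 other cargo receptors, 3 were called (21.4%, against 33.0% of all genes). Ncoa4, the ferritin receptor, measured 92.5, 351, 296 and 407 TPM, and Ccpg1, an endoplasmic reticulum receptor, 10.9, 45.6, 27.4 and 35.6 TPM, with replicate 1 far below the other libraries in both. Stbd1, a glycogen receptor, was called at a mean of only 0.435 TPM and was highest in replicate 1. The highest receptor was Sqstm1, the gene of p62, with 1444, 1238, 1510 and 1431 TPM and a 1.28-fold range. Its mean level was above that of every one of the 35 genes. Rtn3 followed the ferritin receptor at 174 ± 32.5 TPM (SD, n = 4).

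Of 14 genes of fusion with lysosomes, 1 was called (7.14%, against 33.0% of all genes). It was Lamp1, a lysosomal membrane protein, with 1456, 2948, 2284 and 2996 TPM, lowest in replicate 1. Lamp2 measured 488 ± 115 TPM and the small GTPase gene Rab7 510 ± 32.1 TPM (SD, n = 4), the latter within 1.18-fold on scaled counts.

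Of 20 genes that control autophagy through mTORC1, AMPK and TFEB, 6 were called (30%, against 33.0% of all genes). Rptor, the raptor subunit of mTORC1, measured 25.6, 14.3, 11.3 and 14.0 TPM and was highest in replicate 1, opposite to most of the 35 genes. Tfeb, the transcription factor of lysosome and autophagy genes, measured 11.4, 22.6, 15.1 and 18.4 TPM, and Foxo3 10.9, 20.3, 14.2 and 22.8 TPM; both were lowest in replicate 1. Deptor, an mTOR inhibitor, measured 2.59, 7.13, 4.91 and 5.42 TPM, and Ddit4, an mTORC1 inhibitor also known as Redd1, 4.31, 6.32, 2.92 and 4.18 TPM. Prkaa2, an AMPK catalytic subunit, was called at no more than 0.14 TPM in any library. The highest of the list were Tfe3 at 83.2 ± 6.04 TPM, Sesn1 at 74.2 ± 20.2 TPM and Rheb at 67.1 ± 19.2 TPM (SD, n = 4), none of them called.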

How the data were processed

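Polyadenylated RNA of 4 libraries was measured. The gene and first transcript tables hold expected counts and TPM that the authors made from a transcriptome alignment, on mm10 with GENCODE M21 per the file headers and deposited lists, with columns named as RSEM writes them. A further deposited table, here the second quantification, holds estimated counts and TPM made straight from the reads, with columns named as kallisto writes them. For tools, versions and strand setting the entry is: not given in the sources used here. Signal bounds in the deposited gene table are a TPM interval of unstated level, and the deposited percent column is a transcript's share of its gene.

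Expected counts were rounded. Rows that name no gene (0.103% to 0.118% of counts) were left out. Library sizes were scaled by TMM in edgeR 4.0.16 (R 4.3.3), with DESeq2 1.42.0 as an alternative. Genes whose counts averaged 10 or more entered a chi-square test (scipy 1.17.1) with Benjamini-Hochberg adjustment. The read file contrast used edgeR's quasi-likelihood test. Deviations used log2 of CPM plus 1. The tests were tried on simulated data first. Copies were sought with BLAST 2.17.0. Coding sequences were read from GENCODE M21 transcripts, and promoters from RefSeq.

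All 35 genes are named. From each pathway list the 3 highest by mean TPM and those called variable, at most 6, are named. Members, lists and tests were chosen with earlier results of these data known. Alternatives covered scaling, count filters, fold thresholds, left-out libraries, read file number, TPM rescaled over nuclear protein-coding genes, posterior mean TPM and the second quantification.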

Additional observations from a re-analysis of the deposited data

Results flagged for a closer look

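In 70 groups of 4 values (TPM and leading transcript share of each of the 35 genes), the gap of 1 library to the nearest other was compared with the whole range, against Dixon's critical value. There were 3 groups past it, and chance gives about 1 in 20. The TPM of Atg12 was 19.64 in replicate 3 and between 16.13 and 16.27 elsewhere. The TPM of Nbr1 was 35.85 in replicate 1 and between 56.63 and 58.95 elsewhere. The share of Atg14-201 was 97.4% of the TPM of Atg14 in replicate 4 and 100% in the other libraries.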

How the results depend on the processing

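The count of the 35 genes called variable was 7; it became 16 with a fold range of at least 1.5, where 58.2% of all genes were called, and 1 with at least 3, where 16.1% were. Leaving out 1 library gave 2 to 7 (16.1% to 29.2% of all genes), the lowest without replicate 1, and the 2 libraries with 4 read files alone gave 0, where 9.92% of all genes were called. The median level of 17.1 TPM became 21.1 when rescaled over nuclear protein-coding genes and 13.3 by the second quantification, which was lower for 32 genes and higher for 3. By the second quantification, with all transcripts summed, the mean log2 ratios became 2.62 for Map1lc3b to Map1lc3a and 3.38 for Gabarap to Gabarapl2. The ratios became -2.52 for Map1lc3b to Gabarap and 3.20 for Uvrag to Atg14. Without replicate 2 the ratio of Atg2a to Atg2b turned from 0.04 to -0.14, and leaving out the others gave up to 0.20. By the second quantification it was 0.31. The cause of these shifts was not tested. Between 22 and 32 genes varied beyond counting noise under every alternative run, beside 57.0% to 93.6% of all genes; the 22 came from the libraries with 4 read files alone, where 61.4% of all genes passed. Genes lowest in replicate 1, a count itself added after seeing the data, numbered 19 to 31 over alternatives also chosen then, beside 25.3% to 42.1% of all genes. In the read file contrast, none of the 35 passed with DESeq2 size factors, no count filter, the second quantification or the Wald test. In these, 0, 18, 10 and 38 of all genes passed. Fits with a library left out keep a single library in a group, so their calls are not given. The lowest count of any of the 35 genes in a library was 143, in Atg10, so counting error limits that gene most. No paired analysis was possible because there is 1 group of libraries.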
